A study of Rattus norvegicus with 16 samples.

Results

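Transcripts of 9 complement components and regulators were followed in rat supraspinatus muscle after a rotator cuff injury. The genes were C1qa, C1qb, C1qc, C1s, C2, C3, Cfb, Serping1 and C3ar1, taken by symbol from a table of 17147 genes, and all 9 were found and passed the filter on low counts. Messenger RNA was sequenced in 16 libraries of supraspinatus, a muscle of the rotator cuff, from Sprague Dawley rats. At 0 days the 4 libraries came from unoperated control animals. The libraries of the other 3 groups, 4 at each time, were taken 10, 30 and 60 days after the supraspinatus was torn through its full thickness on both sides and its motor nerve, the suprascapular nerve, was resected. No group with surgery but without tear and neurectomy was analysed here, so the effects of the tear, the nerve loss and the surgery cannot be told apart. The labels give no age or sex and do not say which libraries came from the same animal, so the p-values measure the spread between these libraries, which may be partly technical.

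Complement is a cascade of plasma and tissue proteins that marks dying cells, debris and microbes for removal. The classical pathway starts when C1q, built from the chains encoded by C1qa, C1qb and C1qc, binds a surface. Of its proteases C1r and C1s, C1s then cuts C4 and C2. The alternative pathway uses factor B (Cfb), and both pathways lead to cleavage of C3. C1 inhibitor (Serping1) blocks C1r and C1s, and C3ar1 is the receptor for the small fragment released from C3. Most plasma complement is made in the liver, but macrophages are a main source of C1q, and fibroblasts and other tissue cells also transcribe C1s, C3 and C1 inhibitor.

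RefSeq promoter sequences of the rat assembly GRCr8 were found for 4 of the 9 genes, and they are shown because C1qa and C1qb are near neighbours whose levels moved together and C3 and C3ar1 are a ligand precursor and its receptor. C1qb, C1qc and C1qa follow each other on chromosome 5, C2 and Cfb are neighbours on chromosome 20, and C1r and C1s are neighbours on chromosome 4. Serping1 is on chromosome 3, C3 on chromosome 9 and C3ar1 on chromosome 4. Each sequence is the 250 bases before the gene's start, read along the gene, at chr5:154419934-154420183 (C1qa), chr5:154407828-154408077 (C1qb), chr9:2201340-2201589 (C3) and chr4:157756531-157756780 (C3ar1), all on the minus strand, with motif matches in capitals.
C1qa: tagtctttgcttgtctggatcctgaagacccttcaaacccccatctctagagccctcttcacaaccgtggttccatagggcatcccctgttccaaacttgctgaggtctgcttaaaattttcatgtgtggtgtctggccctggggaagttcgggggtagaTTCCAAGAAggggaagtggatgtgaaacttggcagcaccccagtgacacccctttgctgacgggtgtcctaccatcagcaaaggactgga
C1qb: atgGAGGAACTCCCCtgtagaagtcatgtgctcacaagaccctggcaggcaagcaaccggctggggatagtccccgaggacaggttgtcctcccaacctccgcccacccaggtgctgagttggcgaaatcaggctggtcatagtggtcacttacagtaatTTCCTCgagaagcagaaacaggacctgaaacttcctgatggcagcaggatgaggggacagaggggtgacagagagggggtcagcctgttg
C3: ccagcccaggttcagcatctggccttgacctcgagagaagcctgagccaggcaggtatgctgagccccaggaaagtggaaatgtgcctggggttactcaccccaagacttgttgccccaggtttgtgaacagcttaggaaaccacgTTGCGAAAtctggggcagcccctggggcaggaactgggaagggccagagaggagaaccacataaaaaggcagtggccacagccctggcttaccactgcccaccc
C3ar1: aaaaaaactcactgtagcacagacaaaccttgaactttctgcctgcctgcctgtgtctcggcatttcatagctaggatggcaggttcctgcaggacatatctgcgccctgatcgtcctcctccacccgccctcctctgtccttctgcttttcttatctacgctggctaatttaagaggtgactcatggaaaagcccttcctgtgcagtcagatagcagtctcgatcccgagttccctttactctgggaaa
The motifs searched on both strands were the PU.1 core GAGGAA, the STAT word TTCNNNGAA, the interferon response word GAAANNGAA, the C/EBP word TTGCNNAA and the NF-kB consensus. The C1qa window held 1 STAT match, TTCCAAGAA, at positions -90 to -82 counted from the start. In the C1qb window were 2 PU.1 core matches, GAGGAA at -247 to -242 and its reverse complement TTCCTC at -90 to -85, and 1 NF-kB match at -245 to -236 that overlaps the first of them. C3 had 1 C/EBP match, TTGCGAAA, at -104 to -97, and the C3ar1 window had none of these words. Among all 33469 RefSeq promoters of this length, the PU.1 core was found in 23.3%, the STAT word in 7.67%, the interferon response word in 8.12%, the C/EBP word in 9.22% and the NF-kB consensus in 6.33%. A match describes letters only, and binding was not measured.

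The 8 transcripts other than C3ar1, which passed the filter in all 16 libraries, were higher in injured than in unoperated muscle at 10, 30 and 60 days. C3ar1 entered the test only through the injured groups and was called at 10 and 30 days but not at 60. C3 changed most, with a level about 9.28 times the unoperated one at 10 days and 9.37 times at 30 days, and the other 7 of these 8 lay between 1.63 and 2.61 times at 10 days and between 2.41 and 3.26 times at 30 days. The median log2 fold change of the 8 genes was 1.09 at 10 days, 1.58 at 30 days and 1.61 at 60 days, against 0.06, 0.05 and 0.04 for all 11658 genes tested. Calls were made at an adjusted p under 0.05 with edgeR's quasi-likelihood test over all 11658 genes. Of all genes tested, 33.3% were called higher at 10 days, 33.7% at 30 days and 29.9% at 60 days, and 29.4%, 30.9% and 29.1% were called lower, so a call was common in these comparisons. All 3 comparisons share the same 4 unoperated libraries.

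**Figure D1:**
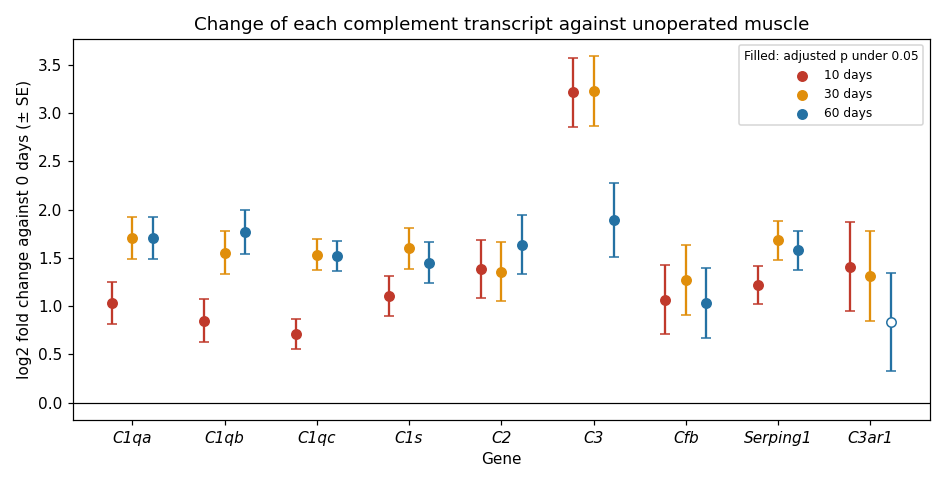
Log2 fold change (vertical axis) of each of the 9 genes (horizontal axis) at 10, 30 and 60 days against 0 days, with bars of 1 standard error and filled points for an adjusted p under 0.05. C3 stands highest at 10 and 30 days, at 3.21 and 3.23, and C3ar1 at 60 days, at 0.83, is the open point.

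Levels are given as CPM, fragments of a gene per 1000000 fragments of the library, scaled with TMM factors (which correct for a few genes taking a large share of fragments), in the order of replicates 1 to 4 within a group. CPM are not divided by transcript length, so levels were compared between libraries and not between genes. Library totals ran from 17.2 to 39.9 M (mega) fragments, and the 4 libraries at 60 days, at 17.2 to 22.4 M, were the shallowest. Scaling by library totals alone moved the median log2 fold change over the table up by 0.66 at 10 days, 0.49 at 30 days and 0.41 at 60 days against 0 days, so every log2 fold change against 0 days is higher on that scale. It moved the median down by 0.16 between 10 and 30 days and by 0.25 between 10 and 60 days, and upper-quartile factors moved it up by 0.12 at 30 days and 0.14 at 60 days against 0 days. The 24 pairs of libraries within groups differed by 13.9 to 107 times the chi-square expected per gene from counting alone, so no pair looked like 1 library entered again. Whether more cells of a type or more RNA per cell lies behind a rise in whole muscle cannot be told apart.

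**Figure D2:**
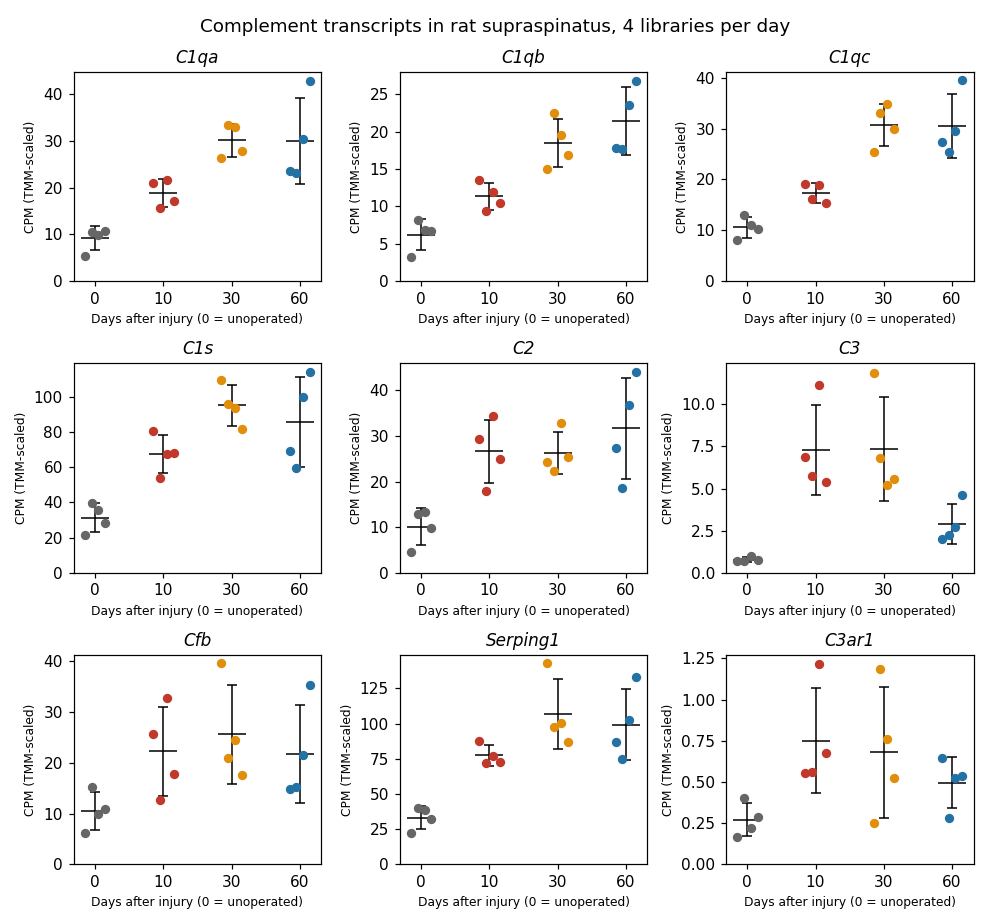
TMM-scaled CPM (vertical axis, from 0) of the 9 genes in each of the 16 libraries by days after injury (horizontal axis, replicates 1 to 4 from left to right); bars show the mean and SD of 4 libraries. All injured libraries of the C1q chains, C1s, C2, C3 and Serping1 lie above all 0-day libraries, and C3 at 60 days lay between 2.03 and 4.62 CPM, below its 10- and 30-day libraries.

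The 3 C1q chains were about 2 times the unoperated level or less at 10 days and about 3 times at 30 and 60 days. With library totals as the scale, their 10-day log2 fold changes were 1.70 for C1qa, 1.51 for C1qb and 1.37 for C1qc, each larger than on the TMM scale below. C1qa, the A chain, had 5.40, 10.4, 9.95 and 10.8 CPM at 0 days and 21.04, 15.6, 21.6 and 17.1 CPM at 10 days. At 30 days it had 26.3, 33.3, 32.9 and 27.7 CPM and at 60 days 23.5, 23.1, 30.4 and 42.8 CPM. Each injured library lay above each unoperated one, the 30- and 60-day libraries all lay above the 10-day ones, replicate 1 was the lowest at 0 days, and replicate 4 was the highest at 60 days. The log2 fold change against 0 days was 1.03 (SE 0.22, adjusted p = 0.000605) at 10 days, 1.71 (SE 0.22, adjusted p = 5.86e-06) at 30 days and 1.70 (SE 0.22, adjusted p = 9.10e-06) at 60 days.

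C1qb, the B chain, had 3.26, 8.14, 6.87 and 6.66 CPM at 0 days and 13.6, 9.43, 11.9 and 10.4 CPM at 10 days. Its levels were 14.9, 22.4, 19.6 and 16.9 CPM at 30 days and 17.8, 17.6, 23.6 and 26.8 CPM at 60 days. No injured library reached down to the unoperated range, the 30- and 60-day groups overlapped each other, and both lay wholly above the 10-day group. Against 0 days, the log2 fold change of C1qb was 0.85 (SE 0.22, adjusted p = 0.00338) at 10 days, 1.55 (SE 0.22, adjusted p = 1.76e-05) at 30 days and 1.77 (SE 0.22, adjusted p = 7.52e-06) at 60 days.

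For C1qc, the C chain, the unoperated libraries had 8.10, 13.02, 10.98 and 10.2 CPM and the 10-day libraries 19.04, 16.1, 18.9 and 15.4 CPM. The 30-day libraries had 25.4, 33.1, 34.8 and 29.8 CPM and the 60-day libraries 27.4, 25.4, 29.6 and 39.6 CPM. The groups at 0 and 10 days did not overlap, and the 2 later groups lay above both. C1qc rose by a log2 fold change of 0.71 (SE 0.15, adjusted p = 0.000807) at 10 days, 1.53 (SE 0.16, adjusted p = 3.98e-07) at 30 days and 1.52 (SE 0.16, adjusted p = 7.56e-07) at 60 days.

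C1s, the protease that C1q carries, and Serping1, the inhibitor that blocks it, rose by like amounts at each time. C1s had 21.4, 39.6, 35.8 and 28.4 CPM at 0 days and 80.8, 54.01, 67.5 and 67.8 CPM at 10 days. At 30 days C1s stood at 109.7, 95.7, 93.4 and 81.4 CPM and at 60 days at 69.3, 59.5, 99.9 and 114 CPM. All injured libraries lay above all unoperated ones, and the 60-day group spread widest, with replicates 1 and 2 within the 10-day range and replicates 3 and 4 well above it. The log2 fold change of C1s was 1.10 (SE 0.21, adjusted p = 0.000277), 1.60 (SE 0.21, adjusted p = 9.89e-06) and 1.45 (SE 0.21, adjusted p = 3.48e-05) at 10, 30 and 60 days.

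Serping1 had 22.5, 39.8, 38.2 and 32.3 CPM at 0 days and 87.8, 71.8, 77.1 and 72.6 CPM at 10 days. Later it had 143, 97.6, 100.4 and 86.7 CPM at 30 days and 87.01, 74.8, 102 and 133 CPM at 60 days. Here too the unoperated group did not overlap any injured group, and the 10-, 30- and 60-day groups overlapped each other. Serping1 changed by 1.22 (SE 0.20, adjusted p = 6.85e-05), 1.68 (SE 0.20, adjusted p = 3.47e-06) and 1.58 (SE 0.20, adjusted p = 9.31e-06) on the log2 scale at 10, 30 and 60 days.

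C2 and Cfb encode the related serine proteases of the classical and the alternative C3 convertase, and both were about 2 to 3 times higher after injury with no comparison among the injured times called. C2 had 4.55, 12.8, 13.3 and 9.72 CPM at 0 days and 29.3, 17.97, 34.4 and 24.9 CPM at 10 days. It had 24.2, 22.2, 32.9 and 25.5 CPM at 30 days and 27.4, 18.6, 36.8 and 43.96 CPM at 60 days. The unoperated libraries all lay below the injured ones, which overlapped from group to group. Its log2 fold changes were 1.38 (SE 0.30, adjusted p = 0.000926) at 10 days, 1.36 (SE 0.30, adjusted p = 0.0011) at 30 days and 1.64 (SE 0.31, adjusted p = 0.000323) at 60 days.

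Cfb varied more between libraries of a group. Its levels were 6.24, 15.2, 9.82 and 10.9 CPM at 0 days and 25.6, 12.7, 32.8 and 17.9 CPM at 10 days, then 39.6, 20.9, 24.5 and 17.5 CPM at 30 days and 14.8, 15.1, 21.6 and 35.3 CPM at 60 days. Replicate 2 at 0 days lay above replicate 2 at 10 days and above replicates 1 and 2 at 60 days, so those groups overlapped, and the 30-day libraries lay above every unoperated one. The log2 fold change was 1.07 (SE 0.36, adjusted p = 0.0167) at 10 days, 1.27 (SE 0.36, adjusted p = 0.00586) at 30 days and 1.04 (SE 0.36, adjusted p = 0.0223) at 60 days. The 10-day call was lost without replicate 1 at 0 days (0.89, adjusted p = 0.0532) or replicate 3 at 10 days (0.82, adjusted p = 0.0646), and the 60-day call without replicate 1 at 0 days (0.88, adjusted p = 0.0646) or replicate 4 at 60 days (0.71, adjusted p = 0.104).

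C3, the component on which all pathways converge, had few fragments in unoperated muscle and rose more than any other of the 9 genes at 10 and 30 days. In the unoperated libraries C3 had 12, 19, 22 and 16 counts, or 0.675, 0.697, 0.982 and 0.766 CPM. It had 6.85, 5.75, 11.2 and 5.41 CPM at 10 days, 11.9, 6.79, 5.201 and 5.55 CPM at 30 days and 2.03, 2.24, 2.69 and 4.62 CPM at 60 days. The 4 groups fell into 3 steps: all unoperated libraries lay lowest, all 60-day libraries lay above them, and all 10- and 30-day libraries lay above those and overlapped each other. Against 0 days the log2 fold change of C3 was 3.21 (SE 0.36, adjusted p = 1.07e-06) at 10 days, 3.23 (SE 0.36, adjusted p = 1.34e-06) at 30 days and 1.89 (SE 0.38, adjusted p = 0.000512) at 60 days. C3 then fell by 1.34 between 30 and 60 days (SE 0.31, adjusted p = 0.00646), and it was lower at 60 than at 10 days, with a log2 fold change of -1.32 (SE 0.31, adjusted p = 0.00164).

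C3ar1, the receptor, had few fragments, from 3 to 50 counts a library. It had 0.169, 0.404, 0.223 and 0.287 CPM at 0 days and 0.551, 0.558, 1.22 and 0.676 CPM at 10 days. At 30 days C3ar1 had 0.248, 1.19, 0.760 and 0.523 CPM and at 60 days 0.646, 0.280, 0.526 and 0.533 CPM. The 10-day libraries all lay above the unoperated ones, while at 30 days replicate 1 and at 60 days replicate 2 lay within the unoperated range. C3ar1 exceeded the filter's cutoff of 0.406 CPM in 0 unoperated libraries, 4 at 10 days, 3 at 30 days and 3 at 60 days, so it entered the test only through the injured groups. The log2 fold change was 1.41 (SE 0.46, adjusted p = 0.0139) at 10 days and 1.31 (SE 0.47, adjusted p = 0.0209) at 30 days. The 60-day value, 0.83 (SE 0.51, adjusted p = 0.168), was not called. The 10-day call was lost without replicate 3 at 10 days (1.08, adjusted p = 0.0580), and the 30-day call without replicate 1 at 0 days (1.18, adjusted p = 0.0544), replicate 3 at 0 days (1.23, adjusted p = 0.0526) or replicate 2 at 30 days (0.84, adjusted p = 0.128) and with limma-voom (1.14, adjusted p = 0.0542). With library totals as the scale, C3ar1 was called at 60 days (1.24, adjusted p = 0.0351).

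Without any model, 7 of the 8 genes at 10 days, 8 at 30 days and 7 at 60 days had all 4 injured libraries above all 4 unoperated ones. The same was true of 31.2%, 31.1% and 24.0% of all genes tested. Cfb was the exception at 10 and at 60 days, and C3ar1, left out of these counts, overlapped at 30 and 60 days. A joint test of any difference among the 4 groups called the 8 genes, as it did 84.7% of all genes, with adjusted p from 3.89e-07 for C1qc to 0.0220 for Cfb. The value of C3ar1 was 0.0416. With the replicate block Cfb was not called (adjusted p = 0.0571), nor was it without replicate 1, 3 or 4 at 0 days. C3ar1 was not called with limma-voom (adjusted p = 0.0780), with the title letter L or R as covariate (adjusted p = 0.0517) or with any 1 of 8 libraries left out in turn.

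Among the injured times, the C1q chains and C3 moved and the rest were not called. From 10 to 30 days, 3 of 9 genes rose, the 3 C1q chains, where 23.0% of all genes were called higher. The log2 fold change from 10 to 30 days was 0.68 (SE 0.21, adjusted p = 0.0137) for C1qa, 0.71 (SE 0.21, adjusted p = 0.0119) for C1qb and 0.83 (SE 0.15, adjusted p = 0.000291) for C1qc. C1s and Serping1 just missed the threshold, at 0.49 (SE 0.20, adjusted p = 0.0594) and 0.47 (SE 0.19, adjusted p = 0.0591), and both passed it with DESeq2 (adjusted p = 0.0369 and 0.0382). That makes 5 of 9 with DESeq2, for which the share of all genes called was not computed. The C1qa call was lost with library totals as the scale (0.50, adjusted p = 0.0652).

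From 30 to 60 days only C3 was called among the 9, as lower, where 12.4% of all genes were called lower. C1qa and C1qc were nearly level over this time, with log2 fold changes of -0.01 (SE 0.21, adjusted p = 0.992) and -0.01 (SE 0.15, adjusted p = 0.966). Their intervals of 2 standard errors to either side ran from -0.42 to 0.41 and from -0.31 to 0.29. C1qb, at 0.21 (SE 0.21, adjusted p = 0.504), had an interval from -0.21 to 0.63. Intervals this wide do not show that the levels were equal.

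From 10 to 60 days the C1q chains rose and C3 fell. The 3 chains were among 29.1% of all genes called higher, and C3 was among 31.9% called lower. The log2 fold change was 0.67 (SE 0.21, adjusted p = 0.0109) for C1qa, 0.92 (SE 0.21, adjusted p = 0.00146) for C1qb and 0.81 (SE 0.15, adjusted p = 0.000203) for C1qc. With library totals as the scale the C1qa call was lost (0.43, adjusted p = 0.0944). C2, at 0.25 (SE 0.29, adjusted p = 0.471), and Cfb, at -0.03 (SE 0.35, adjusted p = 0.946), were not called. This comparison is also the test of whether the changes against 0 days at 60 and at 10 days differ, since the unoperated libraries cancel.

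Some libraries ranked low or high for most of the genes. Replicate 1 at 0 days was the lowest of its group for 9 of 9 genes, and replicate 4 at 60 days was the highest of its group for 8 of 9, with replicate 2 at 60 days lowest for 7. At 10 days replicate 2 was lowest for 6 of 9 genes. At 30 days there was no such order, with replicate 1 lowest for 4 genes and highest for 4. Replicate 1 at 0 days was also lowest of its group in the summed level of the macrophage, fibroblast and T cell markers described below. The same held for the muscle fibre, endothelial and liver markers, while this library was the highest of its group for the neutrophil markers. With any 1 of the 16 libraries left out, the calls lost against 0 days were those given above for Cfb and C3ar1.

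Ratios of levels within a library do not depend on the library's scaling. Of 44 two-sided exact permutation tests on 11 log2 ratios (log2 CPM with a prior count of 2), 0 passed after adjustment, the smallest adjusted p being 0.140. With 4 against 4 libraries the smallest exact p is 0.0286, and 9 of the tests reached it. A pass after adjustment over 44 tests needed many more than these 9 at that smallest p. That 0 passed therefore does not show that the ratios stayed the same. The ratios are of RNA levels, and protein was not measured.

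The ratios of C1q chains to each other moved little beside the rises of the chains. From 10 to 60 days C1qa to C1qb differed by -0.27 (exact p = 0.0571, adjusted p = 0.193) and C1qc to C1qb by -0.11 (exact p = 0.314, adjusted p = 0.476). C1qa to C1qb differed from 0 days by 0.16 (exact p = 0.171, adjusted p = 0.327) at 10 days, 0.14 (exact p = 0.2, adjusted p = 0.367) at 30 days and -0.12 (exact p = 0.343, adjusted p = 0.503) at 60 days. C1s to Serping1, the protease to its inhibitor, differed by -0.12 (exact p = 0.143, adjusted p = 0.3) at 10 days, -0.06 (exact p = 0.571, adjusted p = 0.718) at 30 days and -0.14 (exact p = 0.171, adjusted p = 0.327) at 60 days. C1qc to C1qb differed from 0 days by -0.19, -0.07 and -0.30, and Cfb to its neighbour C2 by -0.41, -0.19 and -0.67, at 10, 30 and 60 days, with adjusted p from 0.193 to 0.951 by exact permutation tests. The differences among C1q chains and between C1s and Serping1 were smaller than the rises of the genes themselves.

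C1qb to C1s and C3 to C3ar1 were each without overlap in some comparisons. C1qb to C1s lay at -2.69 to -2.49 at 10 days and at -2.09 to -1.75 at 60 days, a difference of 0.59 (exact p = 0.0286, adjusted p = 0.14) with no overlap. Its 10- and 30-day values overlapped the unoperated ones. C3 to its receptor C3ar1 was at 0.69 to 1.82 in unoperated muscle and at 2.87 to 3.46 at 10 days, a difference of 1.83 (exact p = 0.0286, adjusted p = 0.14), and at 2.44 to 5.20 at 30 days, a difference of 2.05 (exact p = 0.0286, adjusted p = 0.14). At 60 days C3 to C3ar1 overlapped the unoperated libraries, with a difference of 1.01 (exact p = 0.0857, adjusted p = 0.209). For C3 to C3ar1 the prior count weighs on the low C3ar1 values.

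Markers of macrophages and fibroblasts moved in the same libraries, and their part in the complement changes was not tested. Of the 12 macrophage markers, among them Cd68, Csf1r and Mrc1, 10 rose at 10 days and 12 at 30 and at 60 days, with median log2 fold changes of 1.57, 1.91 and 1.79. Those not called at 10 days were Cd163 (0.39, adjusted p = 0.218) and Cd14 (0.36, adjusted p = 0.112). None of them was at 0 in a group. Their summed level ran over 38.7 to 55.9 CPM at 0 days, 121 to 164 at 10 days, 151 to 199 at 30 days and 131 to 241 at 60 days. Msr1 entered the test only through the injured groups, and the list includes Ptprc, which other leukocytes also express. The log2 ratio of C1qb to the mean of these markers differed from 0 days by -0.52 (exact p = 0.0286, adjusted p = 0.14) at 10 days, and the 60-day ratio differed from the 10-day one by 0.64 (exact p = 0.0286, adjusted p = 0.14), both without overlap of the libraries. At 60 days C1qb to macrophage markers differed from 0 days by 0.12 (exact p = 0.514, adjusted p = 0.665). C3ar1 to macrophage markers differed from 0 days by -0.21 (exact p = 0.486, adjusted p = 0.648) at 10 days and -0.82 (exact p = 0.0857, adjusted p = 0.209) at 30 days. At 60 days this ratio differed from 0 days by -0.98 (exact p = 0.0286, adjusted p = 0.14) and from 10 days by -0.77 (exact p = 0.0857, adjusted p = 0.209). Here too the prior count weighs on the low C3ar1 values.

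Of the 10 fibroblast markers, 9 were tested, and Col1a2 is listed at 0 in every library. At 10 days 6 rose and at 30 and 60 days all 9, with medians of 1.08, 1.52 and 1.76. Their summed level ran over 479 to 996 CPM at 0 days, 891 to 2519 at 10 days, 1473 to 2315 at 30 days and 1368 to 2883 at 60 days. Log2 ratios of C1s and Serping1 to the mean of these markers differed from 0 days by -0.03 (adjusted p = 0.912 by the exact test) and 0.08 (exact p = 0.771, adjusted p = 0.912) at 10 days. They differed by -0.02 and 0.04 at 30 days and by -0.24 and -0.11 at 60 days, with adjusted p from 0.193 to 0.965 by exact permutation tests. For C3 the ratio differed from 0 days at 10 days by 1.89 (exact p = 0.0286, adjusted p = 0.14) and at 30 days by 1.40 (exact p = 0.0286, adjusted p = 0.14), and at 60 days by 0.05 (adjusted p = 0.912 by the exact test). Between 10 and 60 days that ratio differed by -1.84 (exact p = 0.0286, adjusted p = 0.14).

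**Figure D3:**
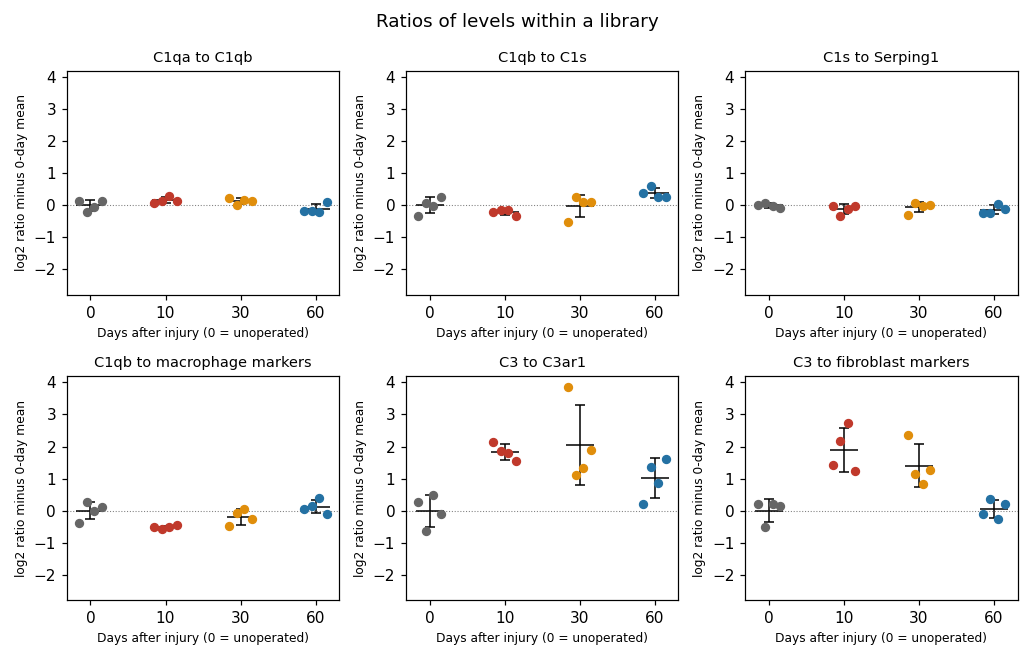
Log2 ratio of 2 levels within each library, less the mean of the 0-day libraries (vertical axis), by days after injury (horizontal axis); points are the 16 libraries and bars the mean and SD of 4. C1qa to C1qb and C1s to Serping1 stay near 0, and C3 to fibroblast markers lies 1.89 above the 0-day mean at 10 days and 1.40 at 30 days. No ratio passed the test after adjustment, for which many more tests had to reach the smallest exact p.

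Other cell types left different traces, and their part was not tested either. Of 6 T cell markers 5 were tested, and 4 of those, Cd3e, Cd3g, Cd8a and Cd2, lay under the filter's cutoff in every unoperated library and entered only through the injured groups. The summed level of the list ran over 2.25 to 4.69 CPM at 0 days and 13.4 to 17.1 CPM at 30 days. Most of it was Cd4, with a mean of 3.27 CPM of a summed mean of 3.90 at 0 days and 11.35 of 14.8 at 30 days. The sum thus mainly follows this 1 gene and does not by itself measure T cells. Of 6 neutrophil markers 3 were tested, S100a8 only through the injured groups, with a summed level of the list of 1.15 to 1.52 CPM at 0 days and at most 9.07 CPM after injury. No B cell marker of the 3 found was high enough to test, and their sum was at most 1.31 CPM. The liver markers, from the organ that makes most plasma complement, summed to 0.0402 to 3.25 CPM over all libraries, with Ahsg at 0 in all of them. Alb was the 1 liver marker tested, and it was called higher at 60 days by 2.04 (adjusted p = 0.0169). It exceeded the filter's cutoff in 1, 1, 0 and 4 libraries at 0, 10, 30 and 60 days. Alb thus entered the test only through the 60-day group, where it was high, and this call is no independent result.

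The muscle fibre markers marked the tissue as skeletal muscle, with a summed level of 201800 to 223900 CPM at 0 days. Of the 7 found, 6 fell and 1 rose at 10 and at 30 days, and 5 fell and 1 rose at 60 days, with medians of -1.86, -0.99 and -0.71, and with library totals as the scale Des at 10 days and Tnnt3 at 30 days turned positive. Endothelial markers were called lower in 5 of 5 at 10 days, but 4 of them turned positive with library totals as the scale (Pecam1 at 0.25, Cdh5 at 0.16, Tek at 0.07 and Emcn at 0.08). At 30 days 2 were called lower, of which Tek turned, and at 60 days 1 was lower and 1 higher. Adipocyte markers rose in 0 of 5 at 10 and 30 days, where 1, Fabp4, was called lower (-1.11 and -0.54), and in 4 at 60 days. With library totals as the scale, Fabp4 was at -0.453 at 10 days and -0.055 at 30 days. Schwann cell markers fell in 3 of 5 at 10 days and rose in 1 at 30 days and 5 at 60 days. Red blood cell markers fell in 4, 2 and 0 of 4. The shares of all genes were 33.3%, 33.7% and 29.9% higher and 29.4%, 30.9% and 29.1% lower at 10, 30 and 60 days.

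Genes known as inducers of complement transcription were called in both directions. Of 16 written, 14 were tested, Il6 only through the injured groups, and at 10 days 6 rose and 2 fell, where 33.3% of all genes were called higher and 29.4% lower. Il1b, Il6, Stat3, Irf1, Irf8 and Spi1 were those that rose and Cebpd among those that fell. At 30 days 5 were higher and 3 lower, and at 60 days 6 were higher and 3 lower, beside 33.7% and 30.9% of all genes at 30 days and 29.9% and 29.1% at 60 days, so these counts lay not far from the background. With library totals as the scale, Rela turned positive at 30 days. The median log2 fold changes were 0.31, 0.32 and 0.31. Spi1 encodes PU.1, Irf8 is a transcription factor of myeloid cells, and Cebpd encodes a C/EBP factor.

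The rest of the complement system moved in both directions. Of 47 further complement genes written down by role, 43 were found, 30 were tested and 2 had 0 fragments in every library. Of the 30 tested, 1 entered only through the injured groups, and it is counted below among those that rose at 10 and 30 days. At 10 days 15 rose and 7 fell, at 30 days 15 rose and 5 fell, and at 60 days 14 rose and 4 fell, with medians of 0.30, 0.53 and 0.55. The shares of all genes were 33.3%, 33.7% and 29.9% higher and 29.4%, 30.9% and 29.1% lower, so the falls were no more common than in the whole table. C5, C7, Colec11 and Itgax were not analysed here.

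Among recognition molecules and initiating proteases, 3, 4 and 4 of 7 rose at 10, 30 and 60 days and 2, 1 and 1 fell. Of these 7, 1 entered the test only through the injured groups and is among those counted as rising at 10 and 30 days. Masp1, a protease of the lectin pathway, fell by 3.27 (SE 0.26, adjusted p = 3.83e-08) on the log2 scale by 10 days, with falls of 2.51 and 1.94 at the later times. Colec12, a scavenger receptor of the collectin family, rose by 0.80, 1.32 and 1.39. C1r, the protease next to C1s on the chromosome and in the C1 complex, rose at all 3 times.

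Of the 4 convertase parts tested, 2, 3 and 4 rose and 0 fell. C4a rose by 2.09, 2.44 and 2.16 and C4b by 1.17, 1.82 and 1.74 at 10, 30 and 60 days. C4a and C4b are near-identical copies between which fragments can be split, so their separate values are uncertain. Cfd, the factor D that cuts factor B, rose at 60 days, and Cfp, properdin, at 30 and 60 days. Among terminal components 2 were tested, and C6 rose by 1.71 (SE 0.37, adjusted p = 0.000817) at 60 days while C8g rose at 30 days.

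Soluble regulators split, with 2 higher and 2 lower of 5 at 10 and at 30 days and 1 of each at 60 days. Cfi, factor I, which cuts C3b and C4b, rose by 2.29 (SE 0.23, adjusted p = 2.34e-07) by 10 days and 1.35 by 30 days, and its 60-day value of 0.54 (adjusted p = 0.0610) was not called. Clu and Vtn were called lower at 10 and 30 days, and the size depended on the scale: with library totals, Clu went from -0.85 to -0.20 at 10 days and from -0.58 to -0.08 at 30 days, and Vtn from -1.13 to -0.47 and from -0.95 to -0.46. Clu also fell at 60 days, where its log2 fold change of -0.37 turned to 0.04 with library totals as the scale.

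Membrane regulators, which protect a cell from its own complement, had 4 higher and 3 lower of 7 at 10 days, 2 and 2 at 30 days, and 1 and 2 at 60 days. Cd55, decay-accelerating factor, fell by 1.69 (SE 0.15, adjusted p = 6.22e-08) by 10 days, with falls of 1.70 and 0.74 at the later times. Susd4 fell at all 3 times, by 1.79 at 30 days and 2.29 at 60 days. Csmd1 rose at 10 days by 1.67 (SE 0.39, adjusted p = 0.00145) and was at 0.24 and 0.09 later. Cd46 rose at all 3 times and Cd59 at 10 and 30 days.

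Of the 5 receptors tested, 4, 3 and 3 rose and 0 fell. C5ar1, the receptor for the small fragment of C5, rose by 1.42, 1.72 and 1.59, and Itgam and Itgb2, the chains of complement receptor 3 on myeloid cells, rose by 1.88, 1.92 and 1.88 and by 1.42, 1.34 and 1.42. With library totals as the scale, all the named genes that fell stayed lower except Clu at 60 days, Masp2 at 10 days (from -0.38 to 0.28), and the values of Vtn at 60 days, which was not called (from -0.20 to 0.22).

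**Figure D4:**
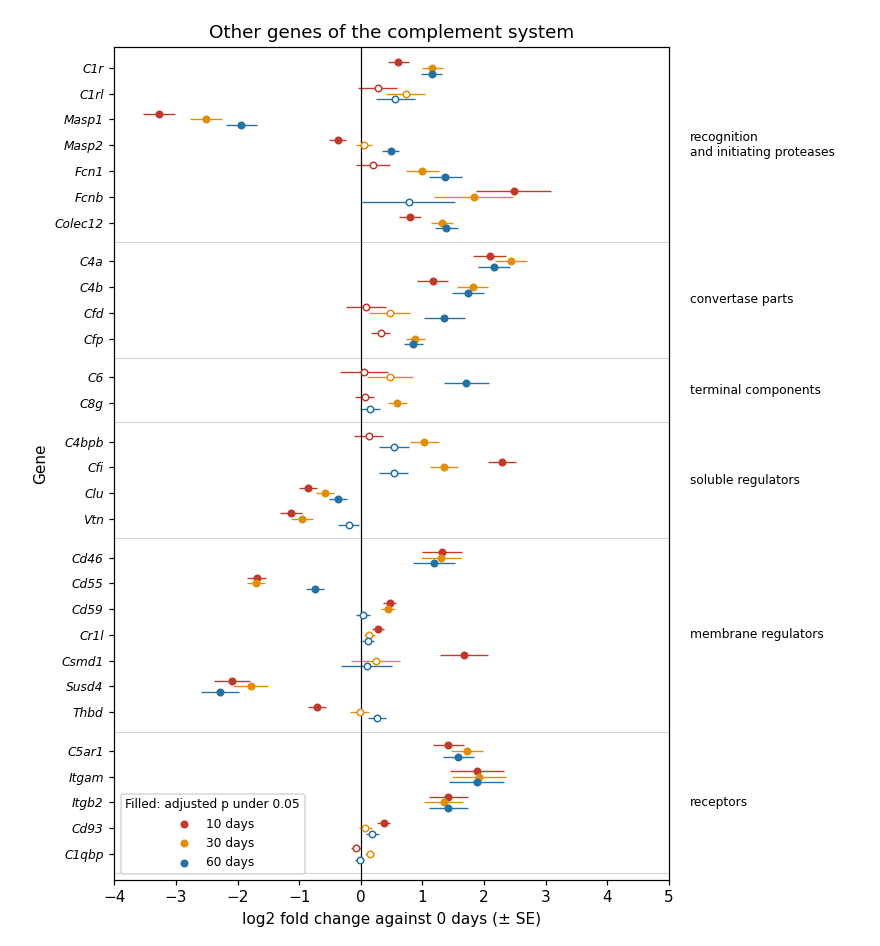
Log2 fold change against 0 days with 1 standard error (horizontal axis) of further complement genes tested (vertical axis), grouped by role, at 10, 30 and 60 days; filled points have an adjusted p under 0.05 and Fcn1 is the table's symbol for Fcna. Masp1, Cd55 and Susd4 lie left of 0 at all 3 times, and C4a, C4b, C5ar1, Itgam and Itgb2 lie right of it.

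Likeness of pattern was measured as the root mean square difference of log2 CPM over the 16 libraries after each gene was centred on its own mean, among 8228 genes with a mean of at least 5 CPM. The 9 genes were left out of the candidates. Of the other genes, the one most like C1qa and C1qb was Folr2, at 0.17 for both, and the next were Ctss (0.20) for C1qa and Clmp (0.21) for C1qb. C1qc was nearest to Ccl24 (0.16) and Pdgfra (0.18), C1s to Sertad4 (0.17) and Mxra8 (0.17), and Serping1 to Csf1r (0.19) and Colec12 (0.19). The median over all candidates ran from 0.74 for C3ar1 to 1.35 for C3.

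Of genes outside the 9, C2 was nearest to Itga11 (0.27), Cfb to Sertad4 (0.31), C3 to Abcg1 (0.36) and C3ar1 to Enc1 (0.43). Within the 9 genes the closest pair was C1s and Serping1, at 0.13, followed by C1qa and C1qb, at 0.16, and C1qa and C1qc, at 0.19. C3 was the farthest from the rest, at 0.82 to 1.05. These distances are descriptions over libraries that share the 4 times.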

How the data were processed

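Polyadenylated RNA of 16 supraspinatus libraries (miRNeasy extraction, TruSeq mRNA kit, per the labels) was sequenced in 4 groups of 4. The authors deposited 1 table of expected counts, the estimated fragments per gene and library, not scaled for depth or length. The submitters' processing notes name bcl2fastq 1.8.4, FastQC, TopHat2 2.0.9, Bowtie2 2.1.0.0, Cufflinks, Cuffdiff 2.1.1 and the build rn5. The annotation, strandedness and filters are not given in the sources used here.

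Values were rounded to whole counts, and 233 of 17147 genes had a fractional value. filterByExpr kept 11658 genes, and 2637 had no fragment in any library. TMM factors ran from 0.75 to 1.24. All libraries entered 1 edgeR 4.0.16 quasi-likelihood model (robust, no covariate, R 4.3.3), with Benjamini-Hochberg adjustment over all genes tested. A standard error is the log2 fold change divided by the square root of F. The smallest level the depth could show, 3 counts of a library's total, was 0.0752 to 0.175 CPM and covers counting error only. Ratios were tested by exact two-sided permutation (scipy 1.17.1). The code was tested on simulated data.

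The 9 genes, the complement, inducer and marker lists and the tests were chosen with earlier results of these data known. Named were all 9 genes, further complement genes called against 0 days with a mean of at least 1 CPM (values for at most 12, those of largest change) and, by likeness, up to 3 genes each. Inducer genes and single markers were named outside this rule, after their values were seen. Some genes of the lists enter the counts but are not reported here. Symbols missing from the table were looked up by RefSeq synonym, which matched Fcna as Fcn1 and Adgre1 as Emr1. Alternatives were RLE and upper-quartile factors, library totals, DESeq2 1.42.0, limma-voom (limma 3.58.1), no filter, a mean of at least 1 CPM, only the groups compared, a threshold of 0.01, a covariate for the title letter L or R (meaning not given), the replicate block, and each library omitted in turn. Column-name suffixes 0 to 3 number the replicates and, with a mean correlation of 0.00 over pairs of libraries, were taken as names only.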

Additional observations from a re-analysis of the deposited data

Results flagged for a closer look

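Among 80 groups of 4 checked for a library far from the others (36 of gene levels, 44 of ratios), 4 had one, and chance alone gives about 1 in 20. C1qa in replicate 1 at 0 days, at 5.40 CPM, lay far below the other 3 unoperated libraries. The log2 ratio of C1qa to C1qb was 0.67 in replicate 4 at 60 days, above the rest of its group. The log2 ratio of C1qc to C1qb was 1.29 in replicate 1 at 0 days, above its group. The log2 ratio of C3 to the fibroblast markers was -5.44 in replicate 2 at 0 days, below its group.

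For 4 genes the change against 0 days differed between 60 and 10 days by edgeR's test of that difference: C1qa by 0.67, C1qb by 0.92 and C1qc by 0.81, all larger at 60 days, and C3 by -1.32, smaller at 60 days.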

How the results depend on the processing

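No called log2 fold change of the 9 genes reversed under the alternatives run. Of 586 values under alternatives other than leaving out a library, 566 kept their side of the threshold, 10 lost a call and 10 gained one, and of 864 values with a library left out, 846, 8 and 10 did. The number of genes called was within 1.5 times the reported one in every comparison except 30 against 10 days, with 3 reported. There it was 5 with upper-quartile factors, 5 with DESeq2, 5 with a mean of at least 1 CPM, 5 with only the groups compared and 1 at an adjusted p under 0.01, and from 3 to 5 with a library left out (5 without replicate 1 at 0 days, replicate 4 at 30 days, or replicate 2 or 4 at 60 days). C1s and Serping1 make up the calls gained. The calls lost at the threshold of 0.01 were C1qa (adjusted p = 0.0137) and C1qb (adjusted p = 0.0119), both by edgeR's test. From 10 to 60 days C1s was called without replicate 2 at 60 days (0.48). With the replicate block 9, 9 and 8 genes were called at 10, 30 and 60 days against 0 days, and 3, 1 and 4 at 30 against 10, 60 against 30 and 60 against 10 days, as reported. The counts at 10 and 30 days against 0 days include C3ar1, which entered the test only through the injured groups. Shares of all genes were not computed under the alternatives, so the counts of genes called under them have no background beside them. The joint test called 8 with the block, all but Cfb. Same-suffix libraries of different groups did not deviate together (24 pairs, correlations from -0.24 to 0.22). None of the 44 ratio tests passed under another prior count or no prior count. There too a pass needed many of the tests at the smallest exact p. With a library left out the tests could not pass, since 3 against 4 gives at least 0.0571. Where a call changed, the cause was not tested. C3ar1 rests on few counts throughout.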
